A study of Mus musculus with 9 samples.

Results

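The genes described here encode the contractile apparatus of smooth muscle cells, which is also a marker set for myofibroblasts, the contractile form of fibroblasts. The set was given as a list of 10 symbols, *Acta2*, *Actg2*, *Myh11*, *Myl9*, *Tpm1*, *Tpm2*, *Tagln*, *Cnn1*, *Lmod1* and *Des*, chosen by function but with earlier results of these data known. All 10 were found by Ensembl identifier among the 47937 genes of the table, and 9 of them were among the 15540 genes that passed the filter on low counts. *Myh11* did not pass, *Cnn1* passed only through its level in G9Gl and *Lmod1* only through its level in WT, so a call of *Cnn1* as higher in G9Gl or of *Lmod1* as lower in a mutant is favoured by the filter itself.

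RNA sequencing was performed on mouse embryonic fibroblasts (MEFs) of 3 genotypes with 3 libraries each. The WT control is a line with a conditional *Eset1* (*Setdb1*) allele that can be deleted by a tamoxifen-inducible Cre, and both mutants were derived from it by CRISPR/Cas9, so this allele is shared by every group. S1S2 cells are knocked out for *Suv39h1* and *Suv39h2*, and G9Gl cells for *G9a* (*Ehmt2*) and *Glp* (*Ehmt1*), each pair encoding methyltransferases for lysine 9 of histone H3 (H3K9). Mutants were selected as clones that had lost the proteins, and each mutant stands for 1 clone whose cultures serve as replicates, so genotype and clone cannot be told apart. Per the study's methods, a construct for inducible Cre with EGFP and puromycin resistance was put back after gene disruption. Lines were then kept in puromycin. Whether WT was treated alike is not given in the sources used here, so this step cannot be told apart from genotype either. Whether these libraries came from cells exposed to tamoxifen, and the age of the embryos, are not given in the sources used here. Values are CPM, counts scaled to the size of the library and to TMM factors, given as mean ± SD of 3 libraries. A gene was called when it differed at least 2-fold and its p from the edgeR quasi-likelihood test, after Benjamini-Hochberg adjustment, was 0.01 or less. The words rose and fell are kept for called genes, and every adjusted p below comes from that test.

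In smooth muscle, force is made by filaments of the actin isoforms *Acta2* and *Actg2* sliding along the myosin heavy chain *Myh11*, whose regulatory light chain is *Myl9*. Tropomyosins, transgelin and calponin lie along the actin filament, leiomodin nucleates filaments, and desmin builds the intermediate filaments that hold the apparatus in place. Most of these genes are textbook targets of serum response factor (SRF), which binds the CArG box, together with its coactivators of the myocardin family. Fibroblasts in culture express part of the set, and transforming growth factor beta and stiff surfaces are known to raise it.

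The RefSeq promoter table for GRCm38.p6 held 7 of the 10 genes. It had no entry for *Actg2*, *Myh11* or *Tagln*. The CArG box was searched as CC, then 6 letters that are each A or T, then GG, a pattern that reads the same on both strands, in the 250 bases before the start site. One exact box was found, in the *Myl9* window, and 1.47% of the 32851 promoter windows and 1.52% of the 10242 tested genes with a window held one. A looser search that let 1 of the 10 letters differ was added after the data were seen. It found an element in 4 of the 7 genes, against 17.6% of the tested genes with a window. The elements are shown because they mark where, by sequence alone, SRF could contact these promoters. The 10 letters of each element are in capitals, and positions count back from the RefSeq start site.
Myl9 at -161, exact, chr2:156775293-156775322 +: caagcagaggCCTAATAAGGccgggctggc
Myl9 at -99, 1 letter off, chr2:156775355-156775384 +: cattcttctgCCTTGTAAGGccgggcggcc
Acta2 at -84, 1 letter off, chr19:34255438-34255467 -: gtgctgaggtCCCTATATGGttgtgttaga
Acta2 at -34, 1 letter off, chr19:34255388-34255417 -: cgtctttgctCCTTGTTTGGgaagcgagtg
Tpm1 at -221, 1 letter off, chr9:67049415-67049444 -: gctcgggtccCCATATATAGtcatatccac
Tpm1 at -80, 1 letter off, chr9:67049274-67049303 -: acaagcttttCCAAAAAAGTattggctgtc
Lmod1 at -189, 1 letter off, chr1:135324614-135324643 +: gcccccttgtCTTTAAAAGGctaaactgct
Lmod1 at -164, 1 letter off, chr1:135324639-135324668 +: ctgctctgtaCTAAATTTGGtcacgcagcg
In the GENCODE M21 annotation both *Acta2* elements and the *Tpm1* element at -80 overlap an exon of a longer transcript of the same gene, and the other 5 elements lie upstream of the gene. A match is a description of the letters, and no match in the windows of *Tpm2*, *Cnn1* and *Des* says nothing about sites elsewhere.

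*Acta2*, *Myl9* and *Tagln* fell in S1S2 and rose in G9Gl, and the other tested members were called against WT in a single mutant or in neither. In S1S2 cells 4 of the 9 tested genes fell and none rose, and the 4 were *Acta2*, *Myl9*, *Tagln* and *Lmod1*. Of all genes tested, 9.0% were called in that comparison and 4.34% were called lower. In G9Gl cells 6 of the 9 rose and none fell, and these were *Acta2*, *Actg2*, *Myl9*, *Tagln*, *Cnn1* and *Des*. The background was 10.2% called and 6.77% called higher. The median log2 fold change of the 9 genes was -0.66 in S1S2 and 1.69 in G9Gl, whereas the median over all tested genes was -0.0032 and -0.0067. The value of -0.66 is that of *Cnn1*, a gene with few reads that was not called in S1S2. It passed the filter only through G9Gl, so this median is partly set by the filter. Compared directly, all 9 had positive differences of G9Gl over S1S2 and 7 were called higher, with 13.1% of all genes called and 7.97% called higher. The median difference was 3.18, again the value of *Cnn1*. Both mutants are set against the same WT libraries, so the first 2 sets of values share their control. None of the 9 tested genes was called lower in G9Gl or higher in S1S2 by edgeR or DESeq2, and 0 of them were at an unadjusted p under 0.05 in those directions. On the p limit alone 6 of the 9 were lower in S1S2 and 7 higher in G9Gl, where 17.6% of all tested genes were lower and 19% higher at that limit.

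**Figure D1:**
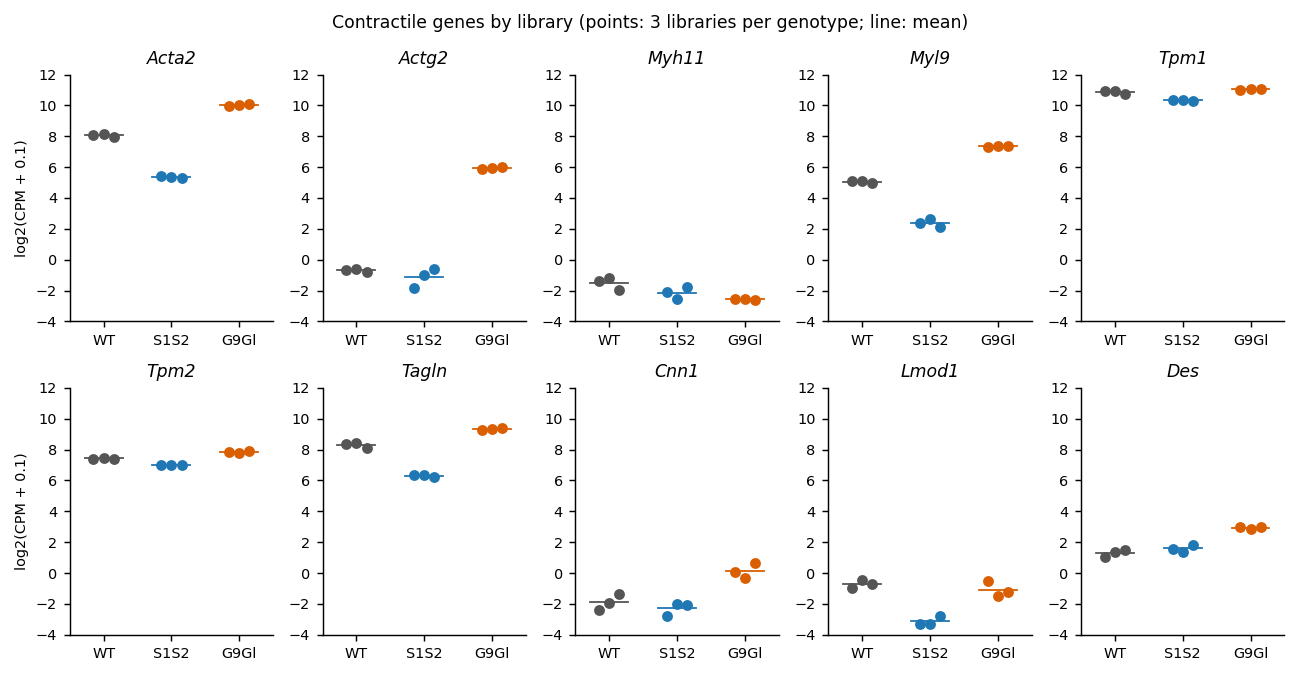
Level of each of the 10 contractile genes in every library, as log2 of CPM plus 0.1, with 3 libraries per genotype as points and their mean as a line. *Acta2*, *Myl9* and *Tagln* step down from WT to S1S2 and up from WT to G9Gl, *Actg2* is near the bottom of the scale except in G9Gl, and *Tpm1* and *Tpm2* stay high throughout.

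*Acta2* encodes smooth muscle alpha actin, the marker most used for myofibroblasts (Ensembl ENSMUSG00000035783, chr19:34241090-34255590, minus strand). Its level was 272, 279 and 248 CPM in the WT libraries, 43.7, 41.6 and 39.1 CPM in S1S2 and 1003, 1022 and 1091 CPM in G9Gl. The 3 groups were far apart, and the spread within each was at most 6.19% of its mean. *Acta2* fell by 2.68 on the log2 scale in S1S2 (SE 0.070, adjusted p = 4.95e-16), from 266 ± 16.5 to 41.5 ± 2.30 CPM. In G9Gl it rose by 1.96 (SE 0.064, adjusted p = 5.7e-15), to 1039 ± 46.4 CPM, and the mutants differed 25.1-fold. The median log2 difference of the tested genes of chromosome 19, which carries it, was 0.34 in S1S2 and -0.17 in G9Gl, both against the direction of *Acta2*. With chromosome medians removed the changes were -3.02 and 2.13.

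The visceral smooth muscle isoform of gamma actin, *Actg2* (ENSMUSG00000059430, chr6:83512905-83536265, minus strand), was close to silent outside G9Gl. It had 17, 17 and 15 reads in WT and 4, 11 and 12 in S1S2, against 1698, 1706 and 1937 in G9Gl. The WT and S1S2 libraries overlapped, at 0.52 ± 0.039 and 0.38 ± 0.19 CPM (log2 difference -0.44, adjusted p = 0.277). In G9Gl *Actg2* reached 61.3 ± 1.82 CPM, a rise of 6.86 on the log2 scale (SE 0.060, adjusted p = 1.53e-17) or 117-fold in the means, the largest change of any of the 9 genes in that comparison. Actin genes are close relatives, so reads could be shared among them. Aligned transcripts of *Acta2* and *Actg2* were 84.3% identical. The longest stretch without a mismatch between either gene and any of the other 5 actins was 56 bases. Neither gene had a stretch of 75 bases, the length of a read before trimming, in a transcript of another gene. Whether reads were shared was not tested.

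The set holds 1 heavy chain and 1 light chain of myosin. *Myh11*, the smooth muscle myosin heavy chain (ENSMUSG00000018830, chr16:14194535-14291372, minus strand), had 9, 10 and 5 reads in WT, 3, 2 and 4 in S1S2 and 2, 2 and 2 in G9Gl. Those levels are at or near the floor of 3 reads and were not tested. The summed reads gave WT a ratio over G9Gl of 3.71 (exact 95% interval 1.48 to 11.1) and over S1S2 of 2.00 (0.899 to 4.90), intervals that cover counting error only. Without the filter on low counts the adjusted p was 0.0553 for G9Gl and 0.353 for S1S2 against WT. *Myh11* is thus the one gene of the set whose level in G9Gl lay below that in WT in every library.

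*Myl9*, the regulatory light chain through which phosphorylation switches smooth muscle and non-muscle myosin on (ENSMUSG00000067818, chr2:156775420-156781658, plus strand), followed *Acta2* closely. It stood at 34.1, 34.2 and 31.0 CPM in WT, 5.14, 6.12 and 4.18 CPM in S1S2 and 157, 164 and 168 CPM in G9Gl. No library of one genotype reached the range of another. The fall in S1S2 was 2.67 on the log2 scale (SE 0.163, adjusted p = 2.12e-13) and the rise in G9Gl was 2.30 (SE 0.054, adjusted p = 1.09e-14). Between the mutants the means differed 31.7-fold.

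*Tpm1* had the highest CPM of the 10 members in every library, and neither tropomyosin reached 2-fold in any comparison. *Tpm1* (ENSMUSG00000032366, chr9:67022590-67049406, minus strand) was measured at 1915, 1985 and 1716 CPM in WT, 1303, 1331 and 1269 CPM in S1S2 and 2016, 2164 and 2167 CPM in G9Gl. Its log2 difference was -0.53 in S1S2 (adjusted p = 3.13e-07), and in G9Gl it was 0.18 (adjusted p = 0.011), both under the 2-fold limit. The gene makes smooth muscle, striated and non-muscle proteins by alternative exons, and a count per gene cannot separate them. *Tpm2* (ENSMUSG00000028464, chr4:43514711-43523765, minus strand) had 171, 175 and 171 CPM in WT, 126, 126 and 129 CPM in S1S2 and 228, 221 and 236 CPM in G9Gl. These groups did not overlap either, and the log2 differences were -0.44 (SE 0.015, adjusted p = 8.42e-08) and 0.41 (SE 0.028, adjusted p = 1.31e-07). Both tropomyosins passed the p limit in the direct comparison of the mutants, at log2 differences of 0.70 and 0.85.

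Transgelin, encoded by *Tagln* (also SM22 alpha; ENSMUSG00000032085, chr9:45929619-45936058, minus strand), crosslinks actin and is an early marker of smooth muscle. Its libraries held 330, 346 and 276 CPM in WT, 80.1, 80.8 and 74.9 CPM in S1S2 and 618, 656 and 661 CPM in G9Gl. *Tagln* fell by 2.01 on the log2 scale in S1S2 (SE 0.106, adjusted p = 2.03e-13). Its rise of 1.02 in G9Gl (SE 0.104, adjusted p = 4.75e-10) sat just past the 2-fold limit, and every G9Gl library was above every WT library. Without WT replicate 3, the lowest WT library, the rise was 0.93, which is under the limit and leaves 5 genes called. In the annotation 62.4% of the exonic bases of *Tagln* are also covered by *Gm48529* on the other strand, which was not analysed here, and 5.43% by *Pcsk7*. Whether strand was used in counting is not given in the sources used here, so reads of these genes cannot be assigned with certainty.

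Calponin, *Cnn1*, which slows the myosin cycle on actin (ENSMUSG00000001349, chr9:22099216-22109630, plus strand), was barely detected in WT and S1S2. It had 3, 5 and 9 reads in WT, 1, 4 and 3 in S1S2 and 27, 20 and 46 in G9Gl. The G9Gl libraries were the highest, at 1.05 ± 0.40 CPM against 0.18 ± 0.10 CPM in WT (log2 difference 2.52, SE 0.439, adjusted p = 9.08e-05). WT and S1S2 overlapped (adjusted p = 0.454). *Lmod1*, leiomodin, which starts new filaments (ENSMUSG00000048096, chr1:135324807-135368065, plus strand), behaved otherwise. It had 13, 19 and 16 reads in WT and 17, 7 and 10 in G9Gl, but 0, 0 and 1 in S1S2. Its fall in S1S2 was called (adjusted p = 9.21e-05), and the summed reads gave WT a ratio of 36.1 over S1S2 (exact 95% interval 6.17 to 1454). Against WT, *Lmod1* in G9Gl showed a log2 difference of -0.39 (adjusted p = 0.452), and the libraries of both groups overlapped. Its fitted log2 fold changes in S1S2 rest on 1 read and depend on the prior count of the fit. They moved from -4.79 to -6.89 without S1S2 replicate 3, the library that holds the read, and to -4.22 without S1S2 replicate 2.

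*Des*, desmin, the intermediate filament protein of muscle (ENSMUSG00000026208, chr1:75360329-75368579, plus strand), was low in all 3 genotypes. It stood at 1.97, 2.45 and 2.67 CPM in WT, 2.85, 2.51 and 3.48 CPM in S1S2 and 7.65, 7.21 and 7.93 CPM in G9Gl. WT and S1S2 overlapped (log2 difference 0.31, adjusted p = 0.136), which made *Des* the single tested member with a positive value in S1S2. The rise in G9Gl was 1.69 (SE 0.133, adjusted p = 2.91e-08). In the annotation 5.86% of the exonic bases of *Des* are also covered by *Gm15179* on the other strand. The tested genes of its chromosome had a median of -0.26 in G9Gl, and the rise of *Des* was 1.95 with chromosome medians removed.

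**Figure D2:**
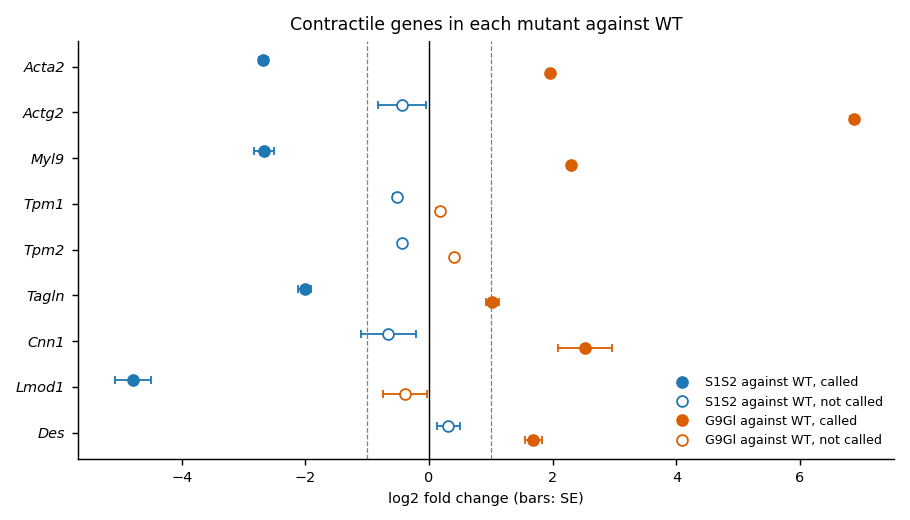
Log2 fold change of the 9 tested contractile genes against WT in S1S2 (blue) and G9Gl (orange), with dashed lines at 2-fold. Bars are 1 SE from the spread of log2 CPM between libraries, not the error of the fitted value. Filled points were called and open points were not. *Acta2*, *Myl9* and *Tagln* lie left of the limit in S1S2 and right of it in G9Gl, *Actg2* stands at 6.86 in G9Gl, and the *Lmod1* value of -4.79 in S1S2 rests on 1 read.

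Set side by side, *Acta2*, *Myl9* and *Tagln* were called in both mutants with opposite signs, while the tropomyosins had the same signs at a smaller size. *Actg2*, *Cnn1* and *Des* were called in G9Gl and not in S1S2, and *Lmod1* in S1S2 and not in G9Gl. For each of these 4 the mutants themselves were called different, by log2 differences of 7.31 for *Actg2*, 3.18 for *Cnn1*, 1.38 for *Des* and 4.40 for *Lmod1*. Libraries of S1S2 and WT did not overlap for 6 of the 9 tested members, against 56.0% of all tested genes, those of G9Gl and WT for 8, against 52.8%, and those of G9Gl and S1S2 for 9, against 60.8%. These shares of all genes are large, so the counts are not read as particular to the set. In bulk RNA a smaller share of cells that express a gene and less RNA per cell cannot be told apart.

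Summed over the 10 members, contractile RNA made up 2445 to 2824 CPM in WT, 1520 to 1588 CPM in S1S2 and 4092 to 4395 CPM in G9Gl. *Tpm1* alone took 70.2% to 70.3% of this sum in WT, 83.5% to 83.8% in S1S2 and 49.3% to 50.4% in G9Gl. *Acta2* took 9.88% to 10.1% in WT, 2.57% to 2.80% in S1S2 and 23.8% to 24.8% in G9Gl. The makeup of the set therefore changed as well as its amount.

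Levels of different genes were compared as CPM per kilobase of annotated exons. In WT the order was *Tpm1* (289 ± 21.6), *Tagln* (160 ± 18.6), *Acta2* (121 ± 7.50), *Tpm2* (59.1 ± 0.850), *Myl9* (28.5 ± 1.57), *Des* (0.63 ± 0.096) and *Actg2* (0.34 ± 0.025), and below these the ranges of *Lmod1* and *Cnn1* and of *Cnn1* and *Myh11* overlapped. In S1S2 *Tpm1* still led at 201 ± 4.75, and *Tpm2* (43.7 ± 0.512) stood above *Tagln* (39.5 ± 1.61) and *Acta2* (18.9 ± 1.05). The G9Gl order began with *Acta2* at 473 ± 21.1, above *Tpm1* (326 ± 13.3) and *Tagln* (324 ± 11.8), whose ranges overlapped, and *Actg2* at 39.4 ± 1.17 stood between *Tpm2* (78.5 ± 2.43) and *Des* (2.02 ± 0.096).

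Relatives of the contractile genes were counted on a list of 21 genes, most of them parts of the non-muscle cytoskeleton and a few of them muscle or neuronal isoforms. *Actb*, cytoplasmic beta actin, had a log2 difference of 0.02 in S1S2 (adjusted p = 0.786), and in G9Gl it was 0.42 (adjusted p = 1.89e-06), while *Actg1*, cytoplasmic gamma actin, had 0.35 and 0.58. *Myh9*, the main non-muscle myosin heavy chain, had 0.23 and 0.45, and *Vim*, vimentin, had 0.72 in S1S2 and -0.22 in G9Gl. Of the 19 relatives tested, 2 rose and 1 fell in S1S2 and 1 rose and 1 fell in G9Gl, and the list medians were 0.19 and 0.32. Among all tested genes 9.0% were called in S1S2 and 10.2% in G9Gl, so these counts are not read as particular to the list. The filament-capping tropomodulins *Tmod1* (2.38) and *Tmod2* (1.72) were those that rose in S1S2, where the non-muscle myosin *Myh14* fell by 1.68. In G9Gl *Myh14* rose by 1.46 and *Tmod2* fell by 1.42, and *Tmod1* and *Myh14* had under 100 reads in every library. *Tmod1* passed the filter only through S1S2.

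The share of a protein family's RNA held by its contractile members was then compared. *Acta2* and *Actg2* together were 4.41% ± 0.033 of actin RNA per kilobase in WT, 0.68% ± 0.020 in S1S2 and 12.5% ± 0.50 in G9Gl. *Myl9* was 14.3% ± 0.531 of the regulatory light chains, counted with *Myl12a* and *Myl12b*, in WT, 2.13% ± 0.406 in S1S2 and 38.5% ± 1.17 in G9Gl. *Tagln* was 66.1% ± 1.33 of the transgelins in WT, 35.6% ± 0.866 in S1S2 and 71.0% ± 0.419 in G9Gl. *Tpm1* and *Tpm2*, whose counts include non-muscle isoforms, were 45.0% ± 1.79 of the tropomyosins in WT, 33.3% ± 0.225 in S1S2 and 41.8% ± 0.416 in G9Gl, where *Tpm4* also had a positive log2 difference of 0.46. *Myh11* stayed under 0.02% of the myosin heavy chains in every library, *Cnn1* held at most 0.183% of the calponins and *Des* at most 0.828% of desmin plus vimentin.

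**Figure D3:**
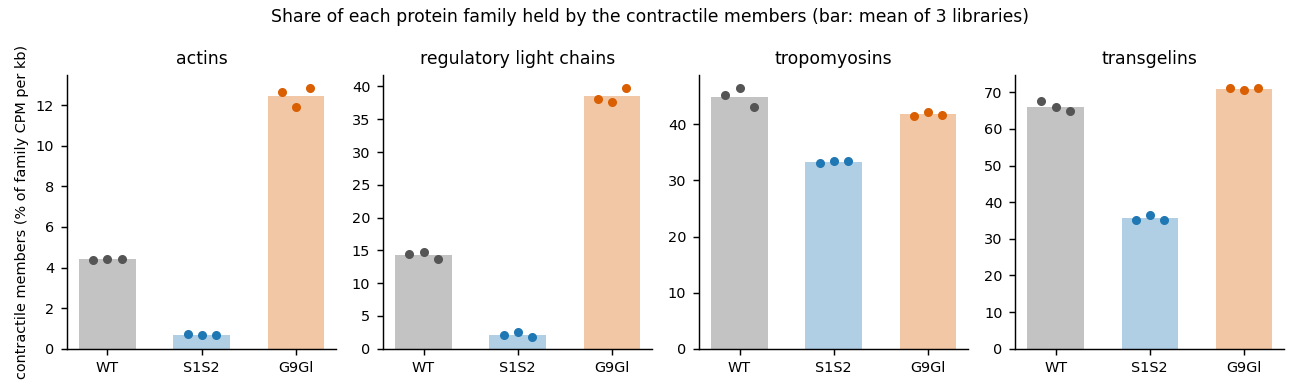
Share of each protein family, in percent of the family's CPM per kilobase, held by its contractile members, with 3 libraries per genotype as points and their mean as a bar. The share is lower than in WT in S1S2 for all 4 families shown and higher in G9Gl for actins (12.5%), regulatory light chains (38.5%) and transgelins (71.0%), while for tropomyosins it is 41.8% in G9Gl against 45.0% in WT.

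Other parts of the smooth muscle apparatus were counted on a separate list of 28 genes, of which 23 were tested. In S1S2 2 rose and 5 fell, and in G9Gl 5 rose and none fell by edgeR or DESeq2, with 3 lower at an unadjusted p under 0.05. Of all tested genes 9.0% were called in S1S2 (4.34% lower) and 10.2% in G9Gl (6.77% higher). With no composition factor 4 of the list rose in G9Gl. With chromosome medians removed 6 rose there, and 3 rose in S1S2. The list medians were -0.08 and 0.43. *Mylk*, the kinase that phosphorylates *Myl9*, was at 5.19 ± 0.402 CPM in WT, 2.37 ± 0.161 CPM in S1S2 (log2 change -1.14, adjusted p = 1.04e-06) and 17.4 ± 0.993 in G9Gl (1.74, adjusted p = 8.26e-11). *Ldb3*, a Z-disc protein, likewise fell by 1.42 in S1S2 and rose by 1.01 in G9Gl, just past the 2-fold limit. *Synpo2*, an actin-bundling protein (-1.73), and the amine oxidase *Aoc3* (-1.36) fell in S1S2, with values of 0.11 and -0.80 in G9Gl. *Fhl1*, a LIM-domain protein, rose by 1.31 in G9Gl, with 0.40 in S1S2. The small heat shock protein *Hspb1* rose in both, by 1.11 and 1.29, and the matrix ligand *Npnt* rose in S1S2 by 1.95.

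Regulators of this program were counted on a list of 23 genes. *Srf* itself was at 59.3 ± 6.50 CPM in WT, 68.5 ± 5.40 in S1S2 and 78.9 ± 4.29 in G9Gl, a log2 difference of 0.21 (adjusted p = 0.0252) and 0.41 (adjusted p = 0.000138). The actin-sensing coactivators *Mrtfa* and *Mrtfb* had 0.09 and -0.0029 in S1S2 and 0.21 and 0.12 in G9Gl, none with an adjusted p of 0.01 or less. *Myocd*, the smooth muscle member of that family, had 0 reads in 8 libraries and 2 in the ninth. Of 22 regulators tested, 1 was called in S1S2, where 9.0% of all genes were, and none by edgeR or DESeq2 in G9Gl, where 10.2% of all genes were called. In G9Gl 8 of the 22 were higher and 5 lower at an unadjusted p under 0.05. With no composition factor edgeR called 1 lower in G9Gl, *Klf4*, a repressor of smooth muscle genes, whose log2 difference with TMM factors was -0.98 (adjusted p = 0.000359). The one called with TMM factors was the mesenchymal homeobox factor *Prrx1*, which fell by 2.44 in S1S2 (104 ± 1.14 to 19.2 ± 1.51 CPM, adjusted p = 2.72e-15) and was at 101 ± 5.31 CPM in G9Gl. The list median was 0.01 in S1S2 and changed sign, to -0.02, with no composition factor.

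SRF also drives immediate early genes, a separate class of its targets. Of 12 tested, 2 rose and none fell in S1S2 by edgeR or DESeq2, with 1 lower at an unadjusted p under 0.05, and 3 rose and 1 fell in G9Gl. Calls among all tested genes were 9.0% in S1S2 and 10.2% in G9Gl. *Ccn1*, a relative of *Ccn2*, rose by 1.05 in S1S2 and 1.03 in G9Gl, and the phosphatase gene *Dusp1* by 1.41 and 1.55. *Ier3* had 0.94 in S1S2 and rose by 1.20 in G9Gl, where *Egr2* fell by 1.61. The list medians were 0.50 and 0.14.

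Genes of myofibroblast activation, 22 tested of 23, divided. In S1S2 2 rose and 7 fell, and in G9Gl 4 rose and 3 fell, around medians of 0.02 and 0.09, the first of which became -0.01 with no composition factor. The share of all tested genes called was 9.0% in S1S2 and 10.2% in G9Gl. *Ccn2* (also CTGF), a matricellular protein that transforming growth factor beta is known to induce, stood at 34.1 ± 8.85 CPM in WT and rose to 108 ± 14.0 CPM in S1S2 (by 1.67 on the log2 scale, adjusted p = 1.59e-08) and to 174 ± 20.4 CPM in G9Gl (by 2.35, adjusted p = 1.24e-10). The ligand *Tgfb1* had 0.50 in S1S2 and 0.13 in G9Gl, under the fold limit. The matrix genes *Col3a1* (-3.01), *Postn* (-2.82) and *Col1a2* (-2.60) fell in S1S2. *Postn*, periostin, then rose by 1.29 in G9Gl, while *Col3a1* and *Col1a2* had -0.86 and -0.24 there. *Cdh11*, a fibroblast cadherin, fell in both (-2.33 and -2.07), as did *Pdgfra*, a growth factor receptor of mesenchymal cells (-2.04 and -1.85).

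**Figure D4:**
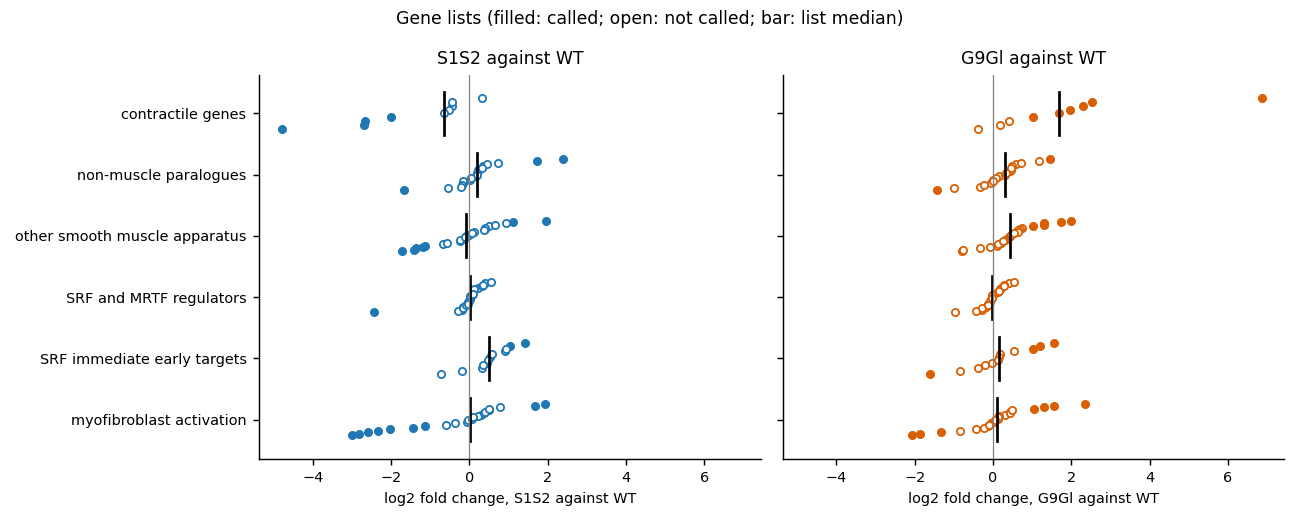
Log2 fold change against WT of every tested gene in the contractile set and 5 related lists, for S1S2 on the left and G9Gl on the right, with filled points for called genes, open points for the rest and a black bar at each list median. The median of the contractile set is -0.66 in S1S2, the value of *Cnn1*, and 1.69 in G9Gl. *Prrx1*, at -2.44 in S1S2, is the one filled point among the SRF and MRTF regulators.

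The label of the cells was checked with marker lists, and the part that other cell types had in these results was not tested. Fibroblast markers were abundant in every library, 11 genes summing to 9864 to 11360 CPM in WT, 7401 to 7468 in S1S2 and 7794 to 8653 in G9Gl, although *Lum* had at most 2 reads in any library and *Dcn* was down to 0.20 ± 0.081 CPM in G9Gl. In S1S2 6 of the 10 tested fell, and in G9Gl 3 fell and *Thy1* rose by 2.94, around medians of -1.22 and -0.34. For this and the other marker lists, the shares of all tested genes called were 9.0% in S1S2 and 10.2% in G9Gl. Of 14 skeletal muscle markers, 6 were tested, and 4 rose in G9Gl and 1 fell in S1S2 (*Tnni2*, by 2.15). The median of the 6 was -0.75 in S1S2 and 1.73 in G9Gl, but *Myf6* and *Tnnc2* passed the filter only through G9Gl, where they are high, so the count and the median there are partly set by the filter. In S1S2 DESeq2 called 3 lower, and edgeR called 2 with no composition factor and 2 with chromosome medians removed. The 14 summed to 3.77 to 5.91 CPM in WT, 2.00 to 2.40 in S1S2 and 10.6 to 14.8 in G9Gl, the same order as the contractile genes at a far lower level. Those that rose were *Myf6*, *Tnnc2*, *Tnnt3* and the skeletal actin *Acta1*, which had 18 to 29 reads in WT and 64 to 105 in G9Gl, while the master regulator *Myod1* was at 0 in all 9 libraries. Cardiac markers summed to at most 2.98 CPM, where 2 of 10 were tested and *Tnnt2* rose by 3.04 in G9Gl as *Tnni3* fell by 2.40, the first having passed the filter only through G9Gl and the second only through WT.

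Pericytes and vascular smooth muscle share much of the contractile program. Their 7 markers summed to 68.2 to 71.3 CPM in WT, 68.4 to 77.3 in S1S2 and 156 to 166 in G9Gl, and *Mcam*, an adhesion protein, was the one called in G9Gl (2.16, adjusted p = 5.7e-15). The proteoglycan gene *Cspg4*, the most abundant of them in WT, went from 38.4 ± 1.30 to 71.5 CPM in G9Gl, a log2 difference of 0.90 (adjusted p = 2.5e-10) that is under the fold limit. *Abcc9* and *Kcnj8* were at 0 in all libraries and *Rgs5* had 1 read in one of them. *Notch3* fell by 1.07 in S1S2, a call that was lost with chromosome medians removed. Endothelial markers summed to at most 2.35 CPM, epithelial to at most 5.74 CPM and immune to at most 4.81 CPM. Single genes of these lists were called, *Kdr* and *Krt8* higher in S1S2 and *Cdh5* and *Krt14* higher in G9Gl, each of which passed the filter only through the group where it was higher. Of the 7 immune markers 1 was tested and none called by edgeR or DESeq2, with 1 at an unadjusted p under 0.05 in S1S2.

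The neighbours of the members on the chromosome were taken as the 5 nearest tested genes on each side, 100 genes in all. Of these 6 (6.0%) were called in S1S2 and 3 (3.0%) in G9Gl, against 9.0% and 10.2% of all genes. All of the calls were higher, and none was lower in either mutant by edgeR or DESeq2, with 26 lower in S1S2 and 25 in G9Gl at an unadjusted p under 0.05. The interferon-induced genes *Ifit2* (1.55), *Ifit3* (3.15) and *Ifit3b* (3.79), which lie 295 to 352 kb from *Acta2*, rose in S1S2 while *Acta2* fell, and *Ifit3* (2.98) and *Ifit3b* (4.32) rose in G9Gl as well. *Rnls*, on the other side of *Acta2*, rose in S1S2 by 2.25 at under 1 CPM. *Vax2*, 175 kb from *Actg2*, rose by 3.02 in S1S2, and *Zfp809*, 116 kb from *Cnn1*, by 1.02. *Rnls* and *Vax2* passed the filter only through S1S2. *Ptprn*, 95.8 kb from *Des*, rose by 2.62 in G9Gl, and no neighbour of *Actg2*, *Myl9*, *Tagln* or *Cnn1* was called there.

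**Figure D5:**
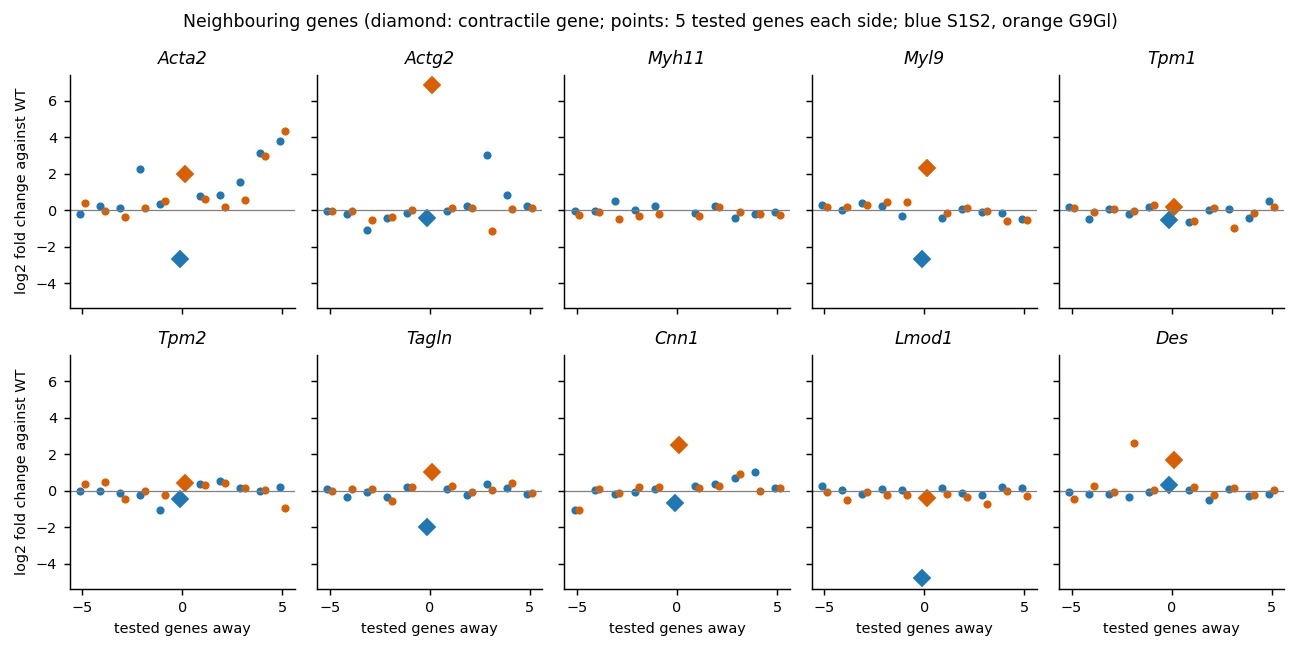
Log2 fold change against WT of the 5 nearest tested genes on each side of every contractile gene, by order along the chromosome, with S1S2 in blue, G9Gl in orange and the contractile gene as a diamond at 0. Around *Actg2*, *Myl9* and *Tagln* the G9Gl points lie between -1.14 (*Vax2*) and 0.46 (*Dlgap4*), beside the diamonds at 6.86, 2.30 and 1.02, and around *Acta2* the 2 last genes after it, *Ifit3* and *Ifit3b*, rise in both mutants.

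Libraries held 21319778 to 32157623 counts, so that 3 reads correspond to 0.092 to 0.141 CPM. Of the targeted genes, *Suv39h1* went from 108 to 41.9 CPM in S1S2, whereas *Suv39h2* was higher there than in WT, at 55.2 against 33.9 CPM (log2 difference 0.70, adjusted p = 3.01e-08). In G9Gl *Ehmt2* went from 125 to 54.2 CPM and *Ehmt1* from 103 to 50.2 CPM.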

How the data were processed

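Total RNA of 9 MEF cultures, 3 each of WT, S1S2 and G9Gl, was sequenced. The authors deposited unnormalized whole-number counts for each Ensembl gene. Per the study's methods, paired reads of stranded libraries were trimmed with cutadapt, aligned to GRCm38 with STAR (version 2.5.2b in the submitters' processing notes) under the settings that TEtranscripts recommends, and counted with TEtranscripts. The annotation release and the strand setting of the counting are not given in the sources used here. The study's methods describe the 3 libraries of a line as biological replicates, so p-values measure the spread between samples of 1 clone and not between clones.

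Identifiers were matched without version to GENCODE M21 (47310 of 47937; 627 were not matched). Genes passing filterByExpr (15540) were tested in R 4.3.3 with edgeR 4.0.16 after TMM normalization, with all 9 libraries in 1 fit and contrasts of each mutant against WT and of G9Gl against S1S2, adjusted over all tested genes. The common biological coefficient of variation was 5.36%. Standard errors come from log2 CPM with a prior count of 2. Floors use 3 reads, and intervals and floors cover counting error only, since without molecular identifiers reads are not separate molecules.

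Named were all 10 members, from each other list the called genes with the 4 largest changes per mutant, a fixed group (*Srf*, *Myocd*, *Mrtfa*, *Mrtfb*, *Actb*, *Actg1*, *Vim*, *Myh9*, *Tgfb1*, *Ccn2*), the 4 targeted genes and called neighbours. *Tpm4*, *Cspg4*, *Klf4*, *Dlgap4* and markers named for levels at or near 0 were added after their values were seen. Some genes that this rule names are not reported here. The members and lists were chosen with earlier results of these data known. DESeq2 1.42.0 and other settings served as alternatives.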

Additional observations from a re-analysis of the deposited data

Results flagged for a closer look

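For 7 of the 9 tested contractile genes the response to the 2 mutants differed by the direct test of G9Gl against S1S2 (edgeR, adjusted p of at most 0.01 and 2-fold). In that test 13.1% of all tested genes were called and 7.97% were called higher. The difference of G9Gl over S1S2 on the log2 scale was 4.65 for *Acta2* (adjusted p = 2.94e-19), 4.97 for *Myl9* (adjusted p = 1.12e-17) and 3.04 for *Tagln* (adjusted p = 4.22e-16), and each of these 3 had been called lower in S1S2 and higher in G9Gl. It was 7.31 for *Actg2* (adjusted p = 2.24e-17), 3.18 for *Cnn1* (adjusted p = 3.72e-05) and 1.38 for *Des* (adjusted p = 3.49e-07), which were called in G9Gl alone against WT. For *Lmod1* it was 4.40 (adjusted p = 0.000313), a value that rests on 1 read in S1S2. *Cnn1* passed the filter on low counts only through G9Gl, where it is higher, and *Lmod1* only through WT. Both calls are therefore partly set by the filter.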

How the results depend on the processing

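Of 475 recomputed log2 fold changes of the members, 466 kept their direction and their side of the threshold, 3 dropped below it, 6 passed it and none reversed. The 3 were the rise of *Tagln* in G9Gl, at 0.99 with no composition factor, 0.99 with chromosome medians removed and 0.93 without WT replicate 3. The 6 were tropomyosin values that passed with an adjusted p limit of 0.05 and no fold limit, a setting that loosens both limits. The number of members called was 4, 6 and 7 (S1S2 against WT, G9Gl against WT, G9Gl against S1S2) with DESeq2. A minimum of 10 counts in every library left 13037 genes to test, without *Actg2*, *Cnn1* and *Lmod1*. It called 3, 4 and 4 of the members still tested, and 728, 682 and 962 of all genes. An adjusted p limit of 0.05 with no fold limit called 7599, 7138 and 8288 of all genes. Leaving out 1 library at a time called 4 to 4, 5 to 6 and 7 to 7 members. With the replicate block the counts were 4, 6 and 7. The numbers were not taken as pairs, since same-numbered libraries correlated between -0.0686 and 0.124 and 6 of 18 correlated best with their own number, and the block changed no call of a member. Fitting only the genotypes compared left 6 members called in G9Gl against S1S2. *Lmod1*, which passed the filter only through WT, was then not tested. Depth limits *Myh11*, *Lmod1* and *Cnn1*, which have at most 46 reads in any library.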
